A study of Homo sapiens with 4 samples.

Results

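The 9 genes described here, NAPSA, PAX8, WT1, MUC16, ARID1A, KRT7, EPCAM, MSLN and SOX17, are markers by which the histological types of ovarian cancer (OCa) are recognised or followed. They were chosen by symbol, with earlier results of these data known, and all 9 were among the 23228 genes of the count tables. In vehicle-treated ES2 cells the keratin KRT7 and the chromatin remodelling gene ARID1A were transcribed at substantial levels, the transcription factors WT1 and PAX8 were low, and EPCAM, NAPSA, MUC16, MSLN and SOX17 were at a few counts or none. After treatment with liquiritigenin (Liq) PAX8 and WT1 fell, KRT7 rose by less than 1.5-fold, and the change of ARID1A did not pass the test.

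Epithelial ovarian cancers are sorted into serous, clear cell, endometrioid and mucinous types, and pathologists separate them by panels of proteins. PAX8 and SOX17 are transcription factors of the Müllerian duct, the embryonic source of the fallopian tube and uterus, and PAX8 is kept in most ovarian carcinomas other than mucinous ones. WT1, a zinc finger transcription factor, marks serous carcinoma and is also made by mesothelium, napsin A (NAPSA) is an aspartic protease that marks clear cell carcinoma, and loss of ARID1A, a subunit of the SWI/SNF chromatin remodelling complex, is frequent in clear cell and endometrioid carcinoma. KRT7 and EPCAM are general markers of epithelium, and MUC16 (the CA125 antigen) and mesothelin (MSLN) are surface proteins that bind each other.

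ES2 is an established human OCa cell line, and it has been used as a model of clear cell carcinoma. The labels give no histological type for it. The groups compared had 2 samples each, ES2 cells given vehicle and ES2 cells given 100 μM Liq, a plant flavanone and agonist of estrogen receptor beta, both for 24 h in phenol red-free RPMI with 5% serum stripped by dextran and charcoal. The labels do not say whether the 2 samples of a group came from separate cultures, so p-values measure the spread between these samples only, which may be technical. Results come from 1 line, and no other line or dose was analysed here.

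RNA was sequenced from TruSeq libraries, and reads were counted per gene. Counts on genes were 42470837 and 38263927 in vehicle and 34573053 and 48933893 in Liq, 54.1 to 55.6% of all tallied reads. At this depth 3 counts, the limit that a count of 0 allows, equal 0.0598 to 0.0844 counts per 1000000 counts on genes (CPM) in a library, and intervals from counts cover counting error only. The levels below are CPM with TMM scaling, and levels of different genes were compared only as CPM per kb of annotated exon, among 20119 genes with a length. The median of these genes was 0.652 CPM per kb in vehicle, and 5750 of them were at 0. A gene "passed the test" at an adjusted p under 0.05 (edgeR's quasi-likelihood test, Benjamini-Hochberg over 13546 tested genes), and it was "called" when it also changed by at least 1.5-fold.

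KRT7, the type II keratin of simple glandular epithelium, was the most abundant of the 9 markers. It lies on chromosome 12 at 52626304-52645970 of GRCh37 (hg19). Its counts were 10919 and 8909 in vehicle, or 63.0 ± 4.9 CPM per kb (SD, n = 2), rank 578 of 20119, so that 97.1% of the ranked genes were lower. ARID1A (chromosome 1, 27019727-27108595) followed with 4861 and 4295 counts, 7.31 ± 0.16 CPM per kb and rank 5113, above 74.6% of the genes. The level of KRT7 per kb was 8.6-fold that of ARID1A, and the vehicle samples of the 2 genes did not overlap.

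WT1 and PAX8 were far lower. WT1 (chromosome 11, 32409321-32457110, minus strand) had 168 and 181 counts in vehicle, 0.548 ± 0.065 CPM per kb and rank 10245. PAX8 (chromosome 2, 113973574-114036498, minus strand) had 49 and 46 counts, 0.164 ± 0.004 CPM per kb and rank 11299. ARID1A stood 13.3-fold above WT1, WT1 3.34-fold above PAX8, and PAX8 8.0-fold above the next marker, EPCAM, and at each of these steps the vehicle samples did not overlap. In bulk RNA, few cells with a transcript and little of it in every cell cannot be told apart. When each gene was divided by its longest transcript in place of all its exons, the order of the markers was the same. PAX8 was below the median of all ranked genes with either length, whereas WT1 was below it with all exons (0.548 against 0.652 CPM per kb) and above it with the longest transcript (1.40 against 0.851 CPM per kb, rank 9496).

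The other 5 markers lay at or near the limit of detection. EPCAM, an epithelial adhesion molecule (chromosome 2, 47572297-47614740), had 3 and 1 counts in vehicle and 1 and 3 in Liq. NAPSA, the clear cell marker (chromosome 19, 50861729-50869087, minus strand), had 1 and 4 counts in vehicle and 5 and 8 in Liq. Per kb, EPCAM and NAPSA were at 0.0205 and 0.0183 CPM in vehicle, and their ranges overlapped, so neither can be placed above the other.

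MUC16 (chromosome 19, 8959520-9121066, minus strand) had 1 count in Liq replicate 1 and none in the other 3 libraries. MSLN (chromosome 16, 810734-818865) had no count in any library. SOX17 (chromosome 8, 55370495-55373452) also had none. For a gene with no count in vehicle, 3 counts over the summed vehicle libraries allow up to 0.0382 CPM, which is 0.000865 CPM per kb for the very long MUC16, 0.0148 for MSLN and 0.0163 for SOX17. These 3 markers were not detectable at this depth in vehicle, which does not show that they are absent. Markers of Müllerian identity were thus split, with PAX8 at a low level and SOX17 not detected, and the surface antigen pair was at 0 to 1 count throughout.

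**Figure D1:**
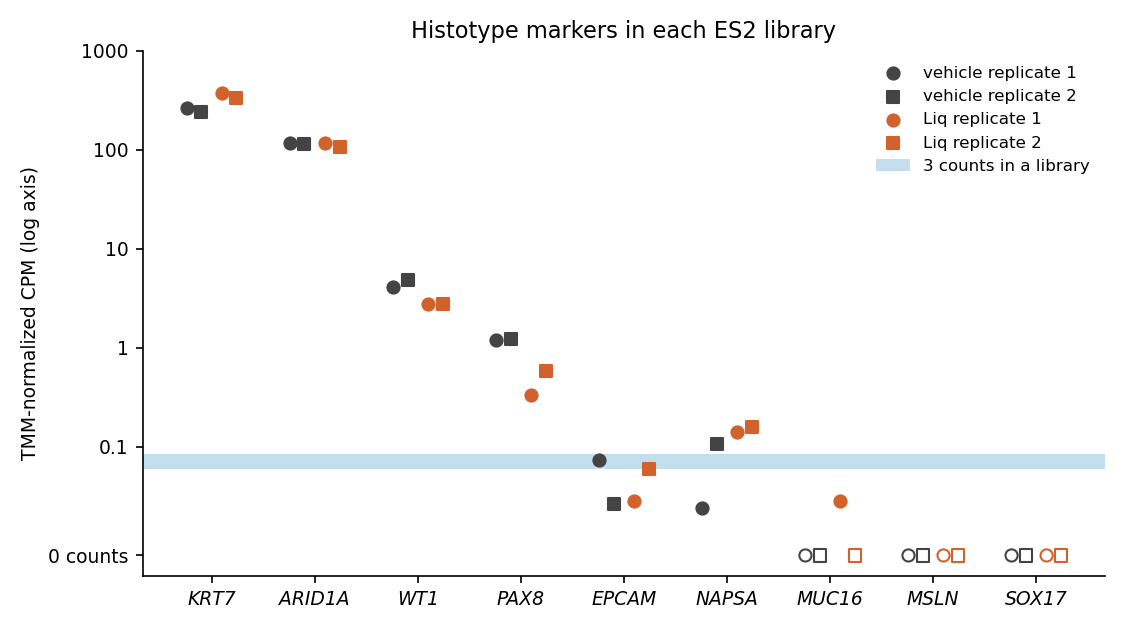
Level of the 9 markers in each of the 4 libraries, in CPM on a log axis, with vehicle samples dark, Liq samples orange, samples without a count as open symbols and the band of 3 counts per library shaded. KRT7 and ARID1A sit above 100 CPM, WT1 and PAX8 between 0.337 and 4.83 CPM with every Liq sample below every vehicle sample, and the other 5 markers at a few counts or 0.

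**Figure D2:**
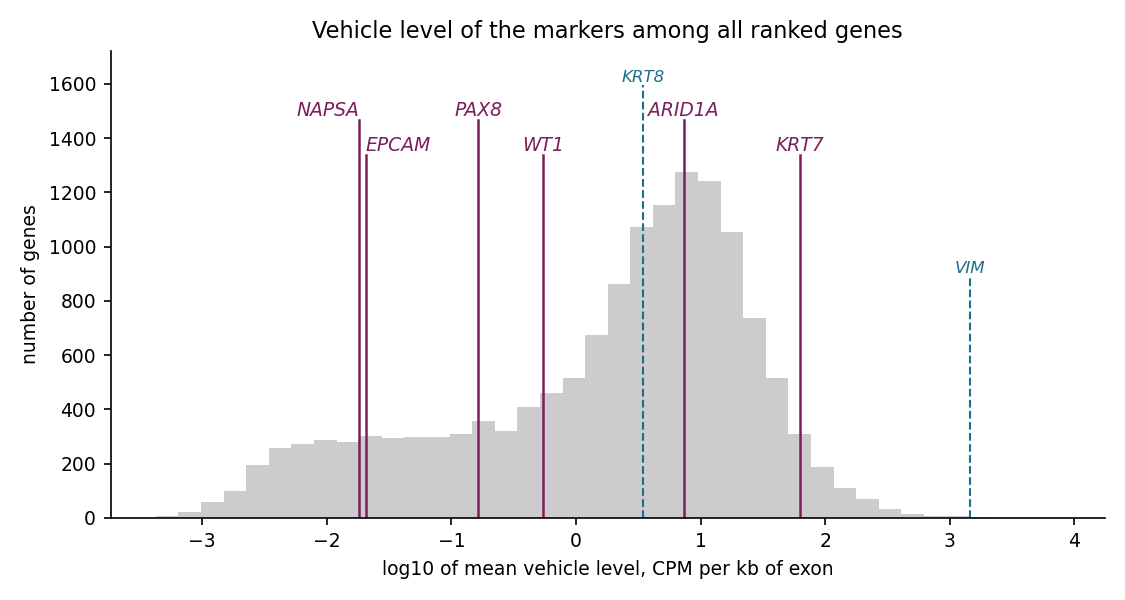
Distribution of the vehicle level of all ranked genes, as log10 of CPM per kb of exon, shown as a histogram of genes above 0, with solid lines at the markers that had a count in vehicle and dashed lines at KRT8 and VIM. KRT7 stands in the upper tail at rank 578, ARID1A at rank 5113, WT1 at rank 10245 and PAX8 at rank 11299, where WT1 lies below the median of 0.652 CPM per kb with this length but above the median with the longest transcript.

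Liq was then compared with vehicle for the 4 markers that passed the filter on low counts, KRT7, ARID1A, WT1 and PAX8, each with at least 12 counts in every library. Of these, 2 were called, both lower, where 6.45% of all tested genes were called, 4.29% higher and 2.16% lower. At the adjusted p alone 1 rose and 2 fell, where 24.0% of all tested genes passed, 12.6% higher and 11.3% lower. The groups did not overlap for 3 of the 4, 1 higher and 2 lower, as for 61.7% of all tested genes, 31.5% higher and 30.2% lower. EPCAM, NAPSA, MUC16, MSLN and SOX17 did not pass the filter. With no filter EPCAM, NAPSA and MUC16 could be tested, and none passed (edgeR adjusted p = 0.9738, 0.4515 and 0.6788), while MSLN and SOX17, without any count, could not.

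PAX8 fell the most. Its levels were 1.19 and 1.23 CPM with vehicle against 0.337 and 0.578 CPM with Liq, and every Liq sample was below every vehicle sample. The mean went from 1.21 ± 0.03 to 0.458 ± 0.170 CPM (SD, n = 2). On the log2 scale the change was -1.34 (SE 0.31, 95% interval -1.98 to -0.71, edgeR adjusted p = 0.002137), which is 2.54-fold lower in Liq. Only 0.502% of the tested genes had a lower log2 fold change. The call held with each library left out in turn, with log2 fold changes of -1.83 to -1.06, and the fewest counts behind it were 12, in Liq replicate 1.

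WT1 was lower in Liq by a smaller factor. Vehicle samples held 4.09 and 4.83 CPM, Liq samples 2.76 and 2.79 CPM, and the groups did not overlap. The log2 fold change was -0.68 (SE 0.16, 95% interval -1.01 to -0.35, edgeR adjusted p = 0.002849), and 97.8% of the tested genes had a higher one. The call rested on vehicle replicate 2, without which the log2 fold change was -0.56 with an edgeR adjusted p of 0.07175.

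KRT7 went the other way. The vehicle samples stood at 265.6 and 238.0 CPM and the Liq samples at 377.8 and 337.2 CPM, with both Liq samples above both vehicle samples. Its log2 fold change was 0.51 (SE 0.07, 95% interval 0.36 to 0.66, edgeR adjusted p = 1.081e-05), a fold of 1.42 with an interval of 1.28 to 1.57. KRT7 therefore passed the test but not the 1.5-fold threshold, and 8.10% of the tested genes had a higher log2 fold change.

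ARID1A averaged 116.5 ± 2.5 CPM over the vehicle samples and 111.4 ± 6.4 over the Liq samples (SD, n = 2), and the groups overlapped. Its log2 fold change was -0.06 (SE 0.07, 95% interval -0.22 to 0.09, edgeR adjusted p = 0.5708), so a fold outside 0.859 to 1.06 lies beyond the 95% interval. For NAPSA the summed counts were 5 in vehicle and 13 in Liq, and their ratio relative to library size, 2.38, had a counting interval of 0.797 to 8.53 that includes no change. For EPCAM the sums were 4 and 4.

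**Figure D3:**
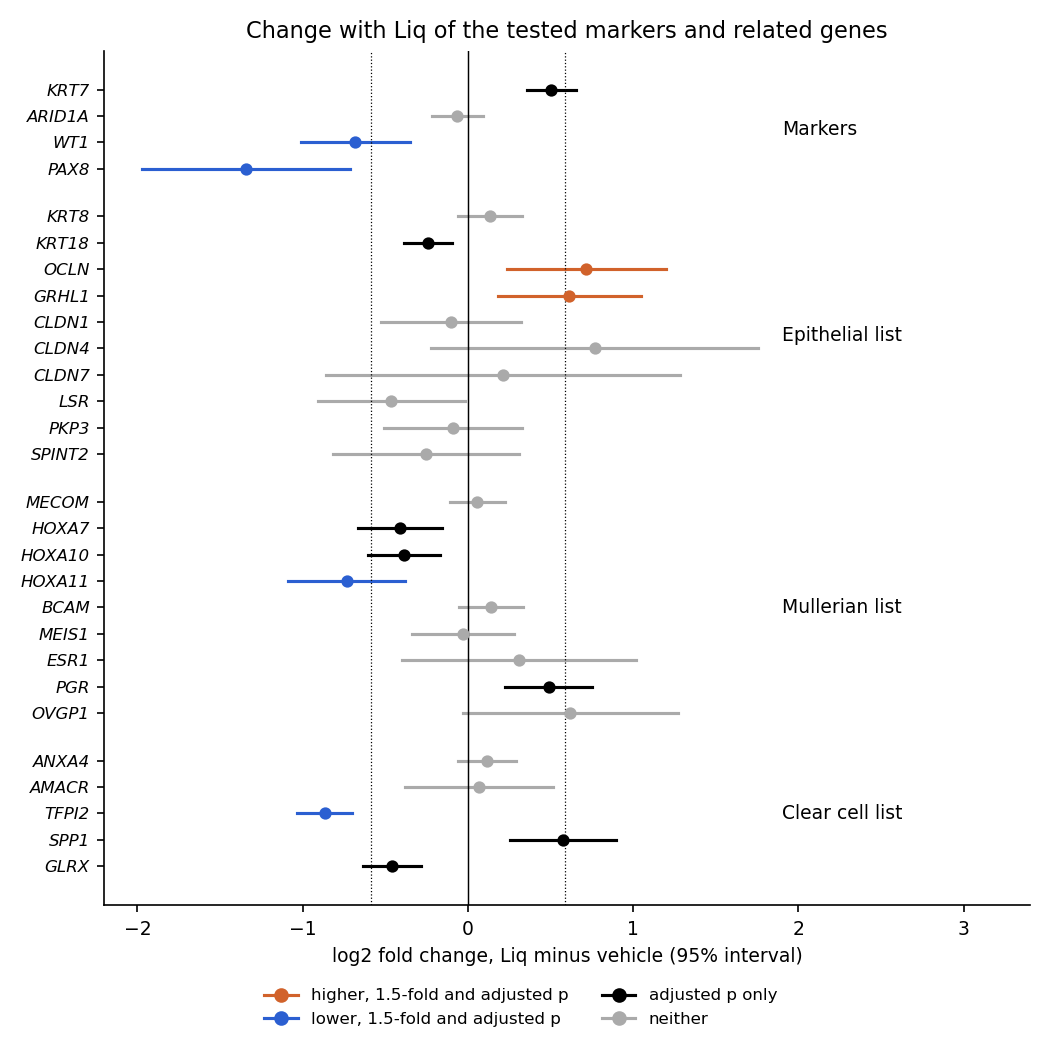
Log2 fold change, Liq minus vehicle, with its 95% interval, for the 4 tested markers and for tested genes of the epithelial, Müllerian and clear cell lists, with dotted lines at 1.5-fold in either direction. PAX8 at -1.34 and WT1 at -0.68 are lower in Liq, KRT7 at 0.51 lies just inside the 1.5-fold line, and ARID1A at -0.06 spans 0.

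PAX8, WT1, KRT7, ARID1A and NAPSA each share exon sequence with a gene on the opposite strand. The sources used here do not say whether strand was used in counting. Without strand, reads where the exons overlap would be left out if both genes were listed, and the marker undercounted. If the other gene was not listed, such reads could come from either strand. The antisense transcript PAX8-AS1, listed as LOC654433, shares 1651 exon bases with PAX8. It had 18 and 19 counts in vehicle and 7 and 3 in Liq, lower in both Liq libraries, and it passed the filter only through the vehicle samples. WT1-AS shares 47 exon bases with WT1 and had 12, 11, 6 and 16 counts, with overlapping groups. KRT7 shares 282 exon bases with KRT7-AS and 32 with KRT87P, and ARID1A shares 382 with a long noncoding RNA. PAX8 also shares 234 with RP11-65I12.1, which may include bases shared with PAX8-AS1. KRT7-AS, KRT87P, the long noncoding RNA and RP11-65I12.1 all lie on the opposite strand and were not among the listed symbols. NAPSA shares 1182 exon bases with NR1H2, a nuclear receptor gene on the other strand with 1932 and 1574 counts in vehicle. NAPSB, the transcribed copy of NAPSA, had no count in any library.

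Promoter windows of the 2 called markers are given because both fell together. That of WT1 lies at an internal start, and whether ES2 cells use this start was not tested. The sequences are the windows of 250 bases before to 50 after the start in RefSeq's table, which was built on GRCh38, and each matched GRCh37 exactly at the position given, on the minus strand. Capitals mark the match to an AP-1 site.

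PAX8, chr2:114036449-114036748, minus strand: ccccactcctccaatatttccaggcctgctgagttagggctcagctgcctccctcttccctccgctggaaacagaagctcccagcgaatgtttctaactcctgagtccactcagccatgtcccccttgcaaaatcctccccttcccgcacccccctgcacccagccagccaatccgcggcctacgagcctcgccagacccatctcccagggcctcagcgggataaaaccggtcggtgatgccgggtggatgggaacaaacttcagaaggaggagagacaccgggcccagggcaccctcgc

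WT1, chr11:32421897-32422196, minus strand: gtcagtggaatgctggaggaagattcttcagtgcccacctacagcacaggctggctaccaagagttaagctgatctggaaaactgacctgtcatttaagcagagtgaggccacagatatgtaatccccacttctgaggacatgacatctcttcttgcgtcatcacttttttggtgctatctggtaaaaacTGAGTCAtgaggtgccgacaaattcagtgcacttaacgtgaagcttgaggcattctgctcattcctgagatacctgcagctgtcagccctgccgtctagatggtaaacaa

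The start of the PAX8 window is the 5′ end of the gene as annotated, with a GC content of 62% and 13 CpG sites, near the median of 58.7% and 14 over 34796 promoters. The WT1 window belongs to an internal start, 35164 bases downstream of the annotated 5′ end, and it is poorer in GC, at 47.3% with 4 CpG sites. On both strands 6 motifs were searched. TGANTCA, the AP-1 site, was found once in the WT1 window, 60 bases before the start, and it occurs in 7.73% of all promoters. The TATA box (TATAAA), the GC box (GGGCGG), the palindromic estrogen response element, the antioxidant response element (TGACNNNGC) and the NF-κB consensus had no match in either window, while they occur in 11.6%, 44.9%, 0.0575%, 13.3% and 11.3% of all promoters. A match is a description of the letters only. KRT7 has no window in the table.

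KRT7 was next set beside the other epithelial genes, since simple epithelium makes KRT7 and KRT8 as partners of the type I keratin KRT18. KRT18 fell in Liq from 197.7 ± 8.9 to 167.2 ± 2.0 CPM (SD, n = 2). This is -0.24 on the log2 scale (SE 0.07, edgeR adjusted p = 0.01322), under 1.5-fold. KRT8 was at 23.8 and 26.1 CPM with a log2 fold change of 0.13 (edgeR adjusted p = 0.3181). Within each library, KRT7 per kb was 0.999 and 0.954 times KRT18 in vehicle and 1.72 and 1.56 times in Liq. The ratio to KRT8 per kb was 18.8 and 17.6 in vehicle and 23.9 and 23.2 in Liq. Both ratios were higher in both Liq libraries, and they do not depend on scaling between libraries. Their size does depend on the exon lengths used and on reads left out as not unique, which was not tested for the keratins.

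**Figure D4:**
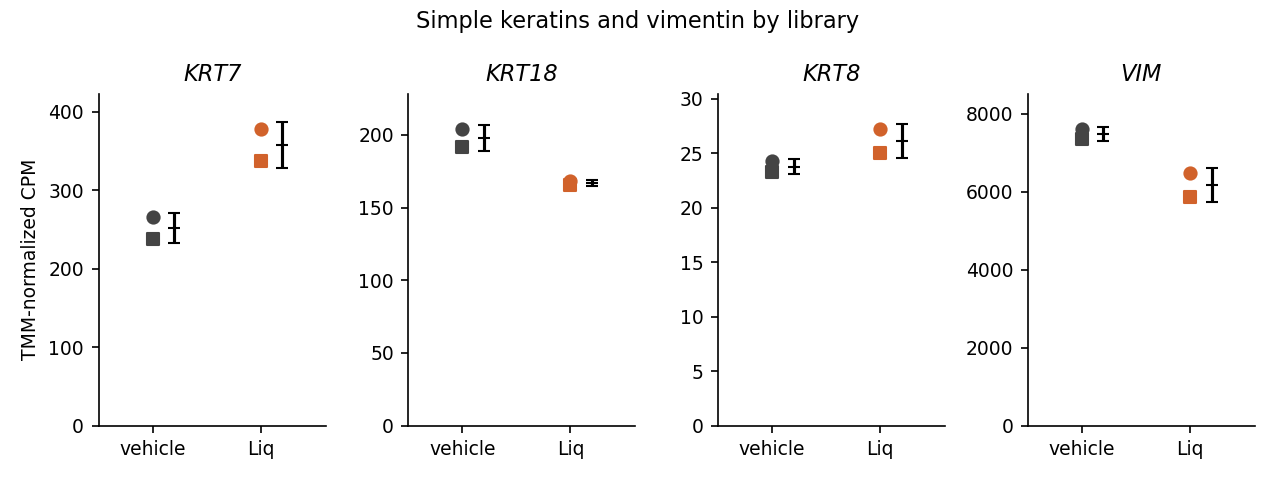
Levels of KRT7, KRT18, KRT8 and VIM in TMM-normalized CPM on linear axes from 0, with circles for replicate 1, squares for replicate 2 and bars for the mean and SD (n = 2). Both Liq samples are above both vehicle samples for KRT7 (357 against 252 CPM on average) and below them for KRT18 (167 against 198) and VIM.

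Of the 34 epithelial genes, KRT7 and EPCAM included, 11 had no count in any library, among them E-cadherin (CDH1), the tight junction claudin CLDN3 and the epithelial transcription factors GRHL2 and ELF3, and 12 were tested. In Liq 3 were called higher, among them the tight junction gene OCLN (40, 64, 74 and 114 counts) and the transcription factor GRHL1 (53, 63, 77 and 118), with log2 fold changes of 0.72 and 0.61. Over all tested genes 4.29% were called higher. None of the 3 calls held with DESeq2, without vehicle replicate 1 or without Liq replicate 2. No epithelial gene was called lower. At the adjusted p alone 4 rose and 1 fell, where 12.6% and 11.3% of all tested genes did, and the median log2 fold change was 0.17, beside 0.01 over all tested genes. LSR, a tricellular junction receptor, did not pass (log2 fold change -0.46, edgeR adjusted p = 0.121).

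The mesenchymal genes vimentin and fibronectin were far more abundant than KRT7 in vehicle. The rest of the mesenchymal list lay below KRT7 (63.0 CPM per kb), with SPARC highest at 51.3. Vimentin (VIM), the intermediate filament protein of mesenchymal cells, ranked 4 of 20119 in vehicle and fibronectin (FN1) ranked 30. VIM per kb was 22.1 and 23.9 times KRT7 in vehicle and 13.25 and 13.45 times in Liq. VIM fell in Liq (log2 fold change -0.28, edgeR adjusted p = 0.0003409). Of 12 mesenchymal genes 11 were tested and none was called, where 6.45% of all tested genes were called. At the adjusted p alone, which 24.0% of all tested genes passed, 2 rose, SNAI2, a repressor of epithelial genes (log2 fold change 0.38), and CDH2 (0.22), and 2 fell, VIM and FN1 (-0.15), with a median of -0.03. Of the defining markers of epithelium, KRT7, KRT18 and KRT8 were present, while CDH1 and EPCAM were at 0 to 3 counts.

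Among 17 genes of Müllerian development and differentiation, PAX8, WT1 and SOX17 included, 11 were tested and 3 were called, all lower, where 2.16% of all tested genes were called lower. The third was HOXA11, a homeobox gene of the lower Müllerian tract, at 145 and 135 counts in vehicle and 75 and 109 in Liq, and it fell from 3.57 ± 0.06 to 2.14 ± 0.04 CPM (SD, n = 2), or by 0.73 on the log2 scale (SE 0.17, edgeR adjusted p = 0.002686). Its neighbours HOXA10 (-0.39, edgeR adjusted p = 0.008873) and HOXA7 (-0.41, edgeR adjusted p = 0.01612) fell by less than 1.5-fold. The progesterone receptor PGR rose (0.49, edgeR adjusted p = 0.006926), also under 1.5-fold. MECOM, a transcription factor often amplified in serous carcinoma, had a log2 fold change of 0.06 (edgeR adjusted p = 0.6573), and BCAM, a laminin receptor, of 0.14 (edgeR adjusted p = 0.2992). ESR1, the gene of estrogen receptor alpha, had 22, 17, 19 and 34 counts. At the adjusted p alone 1 gene rose and 5 fell (12.6% and 11.3% of all tested genes), and the median of the 11 was -0.03, with 5 genes that did not pass. EMX2, PAX2 and WNT7A, like SOX17, had no count.

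The clear cell list held NAPSA and 12 other genes. The nuclear receptor HNF4A and the sodium pump subunit FXYD2 had no count, and NAPSA itself had at most 8 counts in any of the 4 libraries. Of the list, 5 genes were tested. TFPI2, a secreted serine protease inhibitor, was the most abundant of them at rank 470, and it fell from 178.8 ± 2.3 to 97.9 ± 12.4 CPM (SD, n = 2). It was called lower, at -0.87 on the log2 scale (SE 0.08, edgeR adjusted p = 6.902e-09), where 2.16% of all tested genes were called lower. No other gene of the list was called. GLRX, a glutaredoxin, fell under the fold threshold (-0.46, edgeR adjusted p = 0.000318), and SPP1, which encodes the matrix protein osteopontin, rose under it (0.58, edgeR adjusted p = 0.008572). ANXA4, an annexin, had a log2 fold change of 0.11 (edgeR adjusted p = 0.3569). The median of the 5 was 0.07.

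Of 13 endometrioid and mucinous markers that were listed, 6 had no count and 3 were tested. None of the 3 was called, where 6.45% of all tested genes were called. ESR1 and PGR belong to this list too. The intestinal markers CDX2, MUC2, TFF1, TFF3, MUC6 and VIL1 were at 0 in every library. The median of the 3 was 0.31, and PGR passed at the adjusted p alone, as 24.0% of all tested genes did.

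MUC16 and MSLN were not the only serum and surface antigens without signal. Of 20 such genes 11 had no count in any library, including the folate receptor FOLR1, HE4 (WFDC2) and 6 kallikreins, KLK5, KLK6, KLK7, KLK8, KLK10 and KLK11. Tested were 5, and none was called, where 6.45% of all tested genes were called. Their median log2 fold change was 0.19. LGALS3BP, a secreted glycoprotein at rank 455, rose by less than 1.5-fold (0.26, edgeR adjusted p = 0.009501). MUC1 (51, 37, 47 and 62 counts), LY6E and CDH6 did not pass.

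ARID1A was set beside the other subunits of SWI/SNF, the complex that moves nucleosomes with the energy of ATP. Of 25 subunit genes 24 were tested and none was called, where 6.45% of all tested genes were called. At the adjusted p alone 8 fell and 1 rose, where 11.3% of all tested genes fell and 12.6% rose, with a median log2 fold change of -0.12. ARID1A itself was not among the 8. Its closest relative ARID1B, the alternative subunit (named after its value was seen), had a log2 fold change of -0.14 (edgeR adjusted p = 0.196). The core subunits SMARCC1, SMARCD1 and SMARCD2 fell by 0.20, 0.21 and 0.20 on the log2 scale, while ACTL6A (-0.13, edgeR adjusted p = 0.1845) did not pass. SMARCB1, named after its value was seen, had the lowest edgeR adjusted p of the list, 2.499e-05, with a log2 fold change of -0.50 from 103 to 72.8 CPM. In vehicle, ARID1A ranked 5113 and ARID1B 8522, below SMARCC1 at 996 and SMARCA4, the ATPase (named after its value was seen), at 2855.

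The genes whose 4 values lay closest to those of each called marker were looked up among all tested genes outside the lists, by the Euclidean distance of log2 CPM centred on the mean over 4 samples. For PAX8 these were DCDC2 (distance 0.283, 110, 106, 36 and 65 counts), DKFZp686O1327 (0.301) and FER1L6 (0.307). For WT1 they were RPGR (0.0627, 617, 630, 359 and 516 counts), RRN3P3 (0.0669) and NCRNA00261 (0.0739). With 4 samples in 2 groups, a short distance says only that a gene fell by a like amount with a like spread.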

How the data were processed

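ES2 cells were sequenced after vehicle or Liq, 2 libraries each, grouped by the sample labels; the dose is that of the study's methods. Per the labels, TruSeq libraries gave single-end reads that the authors converted with bcl2fastq 2.17.1.14, aligned to hg19 with TopHat2 2.0.8b and counted with HTSeq (version not given in the sources used here). The authors deposited raw counts per gene, neither normalized nor pooled. Reads with several alignments or in several genes were left out by this counting, and the 5 tally lines (35.6 to 36.2% of reads not unique, 0.544 to 0.557% ambiguous) were kept out of library sizes and tests, so genes with close copies or overlaps may be undercounted.

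Here the counts were filtered with filterByExpr (minimum count 10, minimum total 15), scaled by TMM and tested with glmQLFit and glmQLFTest of edgeR 4.0.16 in R 4.3.3, with Benjamini-Hochberg adjustment over 13546 genes and no replicate block. The SE is the size of the log2 fold change divided by the square root of F. The biological coefficient of variation was 0.0575. DESeq2 1.42.0 was an alternative. With 2 samples per group an exact permutation test cannot go below p = 0.3333. On simulated counts of 12915 genes, of which 200 were changed by 2 on the log2 scale, more than any marker changed, edgeR recovered 200 and DESeq2 197, so smaller changes were not checked. Replicates were not copies: the chi-square per degree of freedom was 5.56 for vehicle and 9.63 for Liq, beside 49.8 to 61 between groups. Exon lengths and coordinates came from GENCODE for GRCh37, where 20119 of 23228 symbols (86.6%) matched.

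The 9 markers and the gene lists were chosen with earlier results of these data known. Besides the markers, genes were named by rule: from each list, up to 4 tested genes with the highest vehicle level, up to 4 called genes with the smallest p, and genes that check the cell type. Some genes that this rule names are not reported here. Normalization, filter, tool, thresholds, the block, each replicate, transcript length and scaling were varied.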

Additional observations from a re-analysis of the deposited data

How the results depend on the processing

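PAX8 kept its direction and its call under every alternative tried, and ARID1A stayed uncalled. KRT7 crossed 1.5-fold with loess offsets (0.59) and without vehicle replicate 1 (0.59), and passed with no fold threshold (0.51). It ranged from 0.42 to 0.59 with single libraries left out. WT1 (-0.68) was not called at a fold of 2, stood at -0.83 with loess offsets and ranged from -0.80 to -0.56 with single libraries left out. The number of called markers, 2, became 1 at a fold of 2, and 3 with loess offsets and with no fold threshold. Over all genes, 874 calls became 566 with DESeq2 (339 higher, 227 lower), 328 at a fold of 2 and 3245 with no fold threshold, 659 to 979 with libraries left out, and 1064 with the unadjusted p. Of the scalings, upper-quartile moved the median of all genes the most, by 0.0273 (log2). Loess offsets gave 743 calls, 357 higher and 386 lower, beside 581 higher and 293 lower without them. The excess of higher calls over all genes was therefore lost with loess offsets. It remained with DESeq2 size factors (574 higher, 301 lower) and with upper-quartile scaling (625 higher, 263 lower).

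Calls in the lists changed as follows. With no fold threshold they were 6 Müllerian, 3 clear cell, 1 endometrioid and mucinous, 5 epithelial, 1 antigen, 9 SWI/SNF, 6 driver, 4 mesenchymal and 2 mesothelial. At a fold of 2 they were 1 Müllerian, 0 clear cell, 1 epithelial, 0 mesothelial, 1 germ cell and 1 blood and endothelial. DESeq2 gave 0 epithelial, 1 germ cell and 0 blood and endothelial, upper-quartile scaling 2 clear cell and 2 driver, loess offsets 2 driver, and no filter or 10 counts in every sample 1 blood and endothelial. With libraries left out the ranges were 2 to 3 Müllerian, 1 to 2 clear cell, 1 to 3 epithelial, 1 to 2 driver, 0 to 1 mesothelial, 0 to 1 granulosa, 1 to 2 germ cell and 0 to 1 blood and endothelial.

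With the longest transcript as length, vehicle levels were 155 (KRT7), 13.6 (ARID1A), 1.40 (WT1) and 0.291 (PAX8) CPM per kb, with ranks 283, 4273, 9496 and 11046, and without a TMM factor they were 7.11 (ARID1A) and 0.160 (PAX8). Of the 53 log2 fold changes of single genes other than the markers, 738 values under alternatives gave 661 with the same call, 37 that lost it, 30 that gained it and 10 that turned sign: FN1 (0.013), INHA (-0.18) and MUC1 (-0.0092) with loess offsets, and, with single libraries left out, BCAM (-0.0050 to 0.28), CDKN2A (-0.079 to 0.16, below 0 in 2 cases), LY6E (-0.22 to 0.11, above 0 in 2 cases), MECOM (-0.029 to 0.14) and SPARC (-0.027 to 0.087). The cause of these changes was not tested, and none of these genes passed the test except FN1.

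The replicate numbers are shared by the groups, but nothing in the labels pairs the samples. Across the 13546 tested genes, the deviations of replicate 1 from its group mean in vehicle and in Liq had a correlation of 0.0483. With the replicate block, 898 genes were called, and PAX8 was at -1.38, WT1 at -0.69 and KRT7 at 0.51, with 2 markers called. Depth limits EPCAM, NAPSA, MUC16, MSLN and SOX17, of which the first 3 were tested only with no filter on low counts.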

Other observations

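Genes of other ovarian cell types and of OCa drivers give further background for the markers, and their calls stand beside 6.45% called over all tested genes. In the mesothelial list, which also holds WT1 and MSLN, 6 of 11 genes had no count and 2 were tested: WT1 fell, and BNC1, a zinc finger transcription factor, rose from 191 to 243 CPM, under 1.5-fold (log2 fold change 0.34, edgeR adjusted p = 0.0005632), while calretinin (CALB2) had 2, 0, 1 and 0 counts. The median of the 2 was -0.17. Of 9 granulosa cell genes 4 were at 0, FOXL2 included, and of the 2 tested, AMH and INHA, none was called (median 0.21). Of 9 germ cell genes 4 were at 0, POU5F1 and NANOG included, and 3 were tested (median 0.26): the transcription factor TFAP2C fell (724, 724, 398 and 541 counts; log2 fold change -0.75, edgeR adjusted p = 6.253e-06), the receptor tyrosine kinase KIT rose (16, 11, 32 and 37 counts; 1.23, edgeR adjusted p = 0.01258), and SOX2 did not pass. The KIT call was lost without either vehicle replicate, without Liq replicate 1 and with DESeq2. Of 12 blood and endothelial genes 5 were at 0 and the leukocyte marker PTPRC had 1 count in all. Tested were 3 (median -0.79): the endothelial receptor KDR fell (100, 88, 48 and 71 counts; -0.79, edgeR adjusted p = 0.006026), a call lost without vehicle replicate 1 and with DESeq2. LYZ (23, 15, 8 and 9 counts) passed the filter only through vehicle, and its call was lost with any library left out. CDH5, of the same list, was well detected, with 2175, 1895, 1712 and 2239 counts and rank 4597 in vehicle. Its log2 fold change was -0.16 (edgeR adjusted p = 0.1673).

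All 19 driver genes of OCa, ARID1A included, were tested, and 1 was called, where 6.45% of all tested genes were, namely the receptor tyrosine kinase ERBB2, which rose from 55 and 48 counts in vehicle to 128 and 162 in Liq (log2 fold change 1.37, SE 0.19, edgeR adjusted p = 8.064e-06) and held its call under each alternative tried. MET, the receptor of hepatocyte growth factor at rank 1095 in vehicle, rose by less than 1.5-fold (0.56, edgeR adjusted p = 6.819e-07). At the adjusted p alone 4 drivers rose and 2 fell, where 24.0% of all tested genes passed, and the median was -0.04. CTNNB1, NRAS and CDKN2A did not pass.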
